A study of Mus musculus with 6 samples.

Results

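The arrays hold 45101 probe sets, of which 9 carry the name of *Ripply3*, *Pak1*, *Pak2*, *Pak3* or *Pak4*, and these 9 are described here one by one. They cover 4 of the 5 genes, with 1 probe set for *Ripply3*, 3 for *Pak2*, 4 for *Pak3* and 1 for *Pak4*. *Pak1* was not analysed here, since no probe set bears its name in the annotation used. *Ripply3* and *Pak3* were chosen by the study from the signals of these same arrays, and the other kinases were added as their relatives, so that the differences between genotypes in these genes are given as a description, with no test. By qRT-PCR the study also reported *Ripply3* and *Pak3* as decreased at e15.5, a change that did not persist at a later embryonic stage.

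The RNA came from whole pancreases of C57BL/6 embryos at e15.5. In the 3 *Jarid2* Δpanc embryos, a Cre recombinase under the *Pdx1* promoter removed the loxP-flanked exon 3 of both *Jarid2* alleles, which is a deletion of the pancreatic epithelium and, per the study, a mosaic one. The 3 *Jarid2* WT embryos were wild-type controls. In both groups 50 ng of RNA went through 2 rounds of cDNA synthesis, and 1 of the labels speaks of islets in glucose where all others speak of embryonic pancreas. Each sample is a separate embryo by its title, so that the SDs measure the spread between these embryos. The standard errors and p-values are those of limma, which moderates each variance by the variances of all probe sets compared.

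Ripply proteins are small nuclear adaptors that bind T-box transcription factors and bring Groucho/TLE corepressors to them, which turns activation into repression. In the mouse embryo *Ripply3* is known as a partner of *Tbx1* in the pharyngeal region. The p21-activated kinases are serine/threonine kinases that act on the cytoskeleton and on growth signals. Those of group I (*Pak1*, *Pak2*, *Pak3*) are switched on when GTP-bound Rac or Cdc42 binds them, and *Pak4* belongs to group II, which binds the same GTPases. *Pak2* and *Pak4* are broadly expressed, whereas *Pak3* is best known from neurons and from the endocrine progenitors of the pancreas, where it lies downstream of *Neurog3*. Both *Pak3* and *Ripply3* have been described as brakes on the proliferation of endocrine cells.

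*Pak3* lies on the X chromosome (GRCm38.p6, chrX:143518366-143797796, plus strand) and has more than 1 start site. Windows around 3 of them, each of 250 bases before and 50 after the start as given by RefSeq, are printed because factors of the *Neurog3* type bind the E-box, CANNTG. No probe set of *Pak3* was assigned to a start site, so the windows do not bear on differences between its probe sets. Capitals mark every E-box, and the motif reads the same on both strands.
Pak3 window 1, chrX:143518341-143518640: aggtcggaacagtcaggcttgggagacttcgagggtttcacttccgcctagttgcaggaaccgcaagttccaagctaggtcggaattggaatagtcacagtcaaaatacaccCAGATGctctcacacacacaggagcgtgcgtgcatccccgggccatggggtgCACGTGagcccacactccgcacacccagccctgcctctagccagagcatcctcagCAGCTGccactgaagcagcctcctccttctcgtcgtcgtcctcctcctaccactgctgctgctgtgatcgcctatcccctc
Pak3 window 2, chrX:143665495-143665794: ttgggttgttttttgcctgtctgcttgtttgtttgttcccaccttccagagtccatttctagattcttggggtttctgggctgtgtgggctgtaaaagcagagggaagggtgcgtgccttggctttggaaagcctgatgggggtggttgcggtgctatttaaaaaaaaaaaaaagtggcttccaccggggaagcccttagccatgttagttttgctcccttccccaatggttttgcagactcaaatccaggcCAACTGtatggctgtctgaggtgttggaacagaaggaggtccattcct
Pak3 window 3, chrX:143693037-143693336: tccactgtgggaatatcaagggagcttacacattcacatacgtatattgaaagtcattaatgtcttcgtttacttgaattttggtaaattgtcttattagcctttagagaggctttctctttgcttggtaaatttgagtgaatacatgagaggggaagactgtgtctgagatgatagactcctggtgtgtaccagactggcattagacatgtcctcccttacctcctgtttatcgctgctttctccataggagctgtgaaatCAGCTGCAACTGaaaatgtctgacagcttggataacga
The windows hold 3, 1 and 2 E-boxes. Of 32851 such windows of mouse genes, 72.3% hold at least 1 and 17.6% hold 3 or more, with a median of 1. The 2 in the third window adjoin each other. A match is a run of letters and not a measured site, and no binding was measured on these arrays.

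Several arrays stood apart by sex-linked transcripts, which followed the genotype in part, and 1 by muscle transcripts. *Xist*, which silences 1 X chromosome in female cells, had a signal of 4662, 4905 and 4197 in *Jarid2* Δpanc, against 24, 12 and 4390 in *Jarid2* WT, and the Y-linked *Eif2s3y* had 7, 5 and 13 in *Jarid2* Δpanc, against 560, 506 and 9 in *Jarid2* WT. *Jarid2* WT replicate 3 is thus the only control with the same pattern as the *Jarid2* Δpanc embryos. In that array the summed signal of 6 skeletal muscle genes was 7848, against 169 to 207 in *Jarid2* Δpanc and 155 and 196 in the other *Jarid2* WT arrays. The probe sets of *Jarid2* itself, 3 in number, had log2 fold changes of 0.06, 0.13 and 0.01. The brightest, 1422698_s_at, had 392, 398 and 355 in *Jarid2* Δpanc, against 335, 301 and 415 in *Jarid2* WT, with overlapping groups. Where these probe sets lie relative to the deleted exon is not given in the files, so they do not check the deletion. The study measured the deleted exon itself by qRT-PCR and reported it as reduced in *Jarid2* Δpanc pancreases at e15.5. Over all probe sets, the median signal per array was 35 to 38.

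*Ripply3* (chr16:94328422-94336935, probe set 1420459_at) had a signal of 72, 64 and 65 in *Jarid2* Δpanc, against 106, 103 and 99 in *Jarid2* WT. All 3 *Jarid2* Δpanc arrays lay below all 3 *Jarid2* WT arrays, with a gap of 27 between the groups. The signal averaged 67.0 ± 4.36 in *Jarid2* Δpanc and 102.7 ± 3.51 in *Jarid2* WT (SD, n = 3 each), which is 65.3% of the control level (log2 fold change -0.62, standard error 0.10). In whole tissue, fewer cells of a type and less RNA per cell cannot be told apart. Against *Jarid2* WT replicate 3 alone, the control with the same *Xist* pattern, the log2 difference was -0.57 (67.7%), and without that array it was -0.64. Over 13 other settings of scale, floor and samples it stayed between -0.67 and -0.57.

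*Pak3* was read by 4 probe sets, and their groups separated in 1 of them. For 1435486_at the signal was 84, 93 and 96 in *Jarid2* Δpanc, against 145, 149 and 133 in *Jarid2* WT, with a gap of 37 between the groups. The mean was 91.0 ± 6.25 in *Jarid2* Δpanc and 142.3 ± 8.33 in *Jarid2* WT (SD, n = 3 each), which is 63.9% of the control level (log2 fold change -0.65, standard error 0.11). *Pak3* is X-linked and the *Xist* pattern differs between the groups. Against *Jarid2* WT replicate 3 alone, the control with the *Xist* pattern of the *Jarid2* Δpanc arrays and with the muscle transcripts, the log2 difference was -0.55 (68.4%). The part of either in this value was not tested. The fold change was -0.69 without that array, and negative in all of 13 other settings.

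The other 3 probe sets of *Pak3* had groups that overlap. For 1417923_at the signal was 103, 105 and 120 in *Jarid2* Δpanc, against 128, 134 and 105 in *Jarid2* WT, or -0.16 on the log2 scale (standard error 0.14). There *Jarid2* WT replicate 3 lay among the *Jarid2* Δpanc arrays, and against that control alone the difference was 0.055. For 1437318_at the signal was 80, 59 and 82 in *Jarid2* Δpanc, against 70, 80 and 87 in *Jarid2* WT, or -0.11 (standard error 0.17). The dim 1417924_at had 26, 33 and 8 in *Jarid2* Δpanc, against 34, 31 and 23 in *Jarid2* WT, and -0.27 (standard error 0.29) with the third *Jarid2* Δpanc value below the floor of 16 that was set before taking log2. All 4 fold changes were negative, with a mean of -0.30.

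Which probe set stands for *Pak3* decides how large its difference looks. On the log2 scale 1417923_at has the higher mean over the 6 arrays, and the gene then has -0.16, whereas on the linear scale it is 1435486_at, with -0.65. The distance of 0.54 between the lowest and the highest fold change of *Pak3* was reached or passed by 284 of the 915 genes (31.0%) with 4 probe sets in the comparison, where the median distance was 0.40. A gene with 1 separated probe set among several was common too. Of 938 genes with at least 2 probe sets and 1 that was fully below the controls, 877 (93.5%) also had a probe set that was not. The files do not say where in the transcript each probe set lies.

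**Figure D1:**
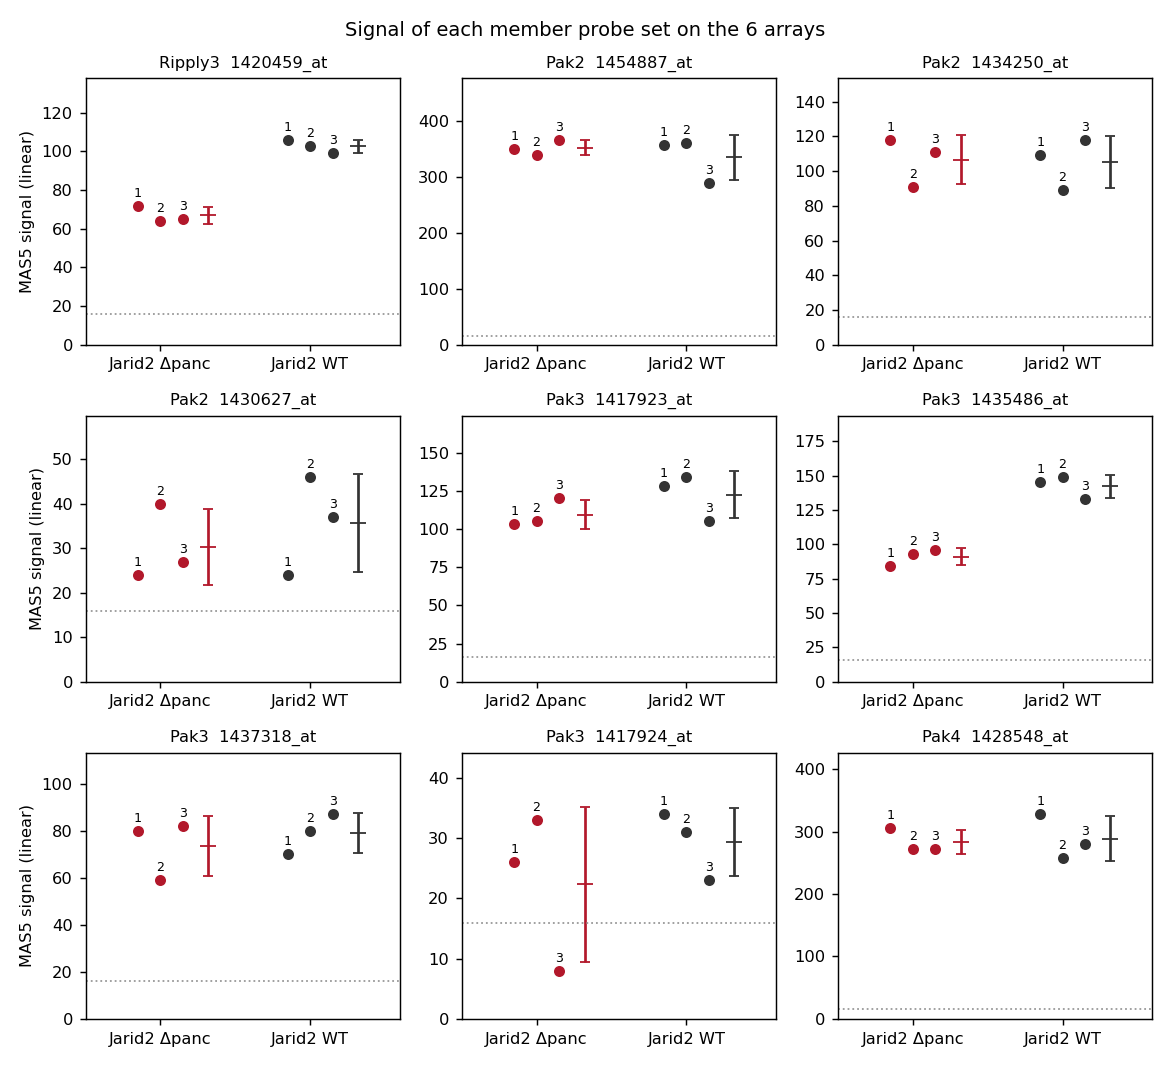
Signal (MAS5, linear scale, vertical axis) of the 9 probe sets of *Ripply3*, *Pak2*, *Pak3* and *Pak4* on 3 *Jarid2* Δpanc (red) and 3 *Jarid2* WT arrays (grey). Numbered points are embryos, bars are the mean ± SD, and the dotted line is the floor of 16. The groups do not overlap for *Ripply3* and for 1435486_at of *Pak3*, and they overlap in the other 7 panels.

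*Pak2* and *Pak4* had values close to the control level. The brightest *Pak2* probe set (chr16:32016290-32079342, 1454887_at) had 350, 339 and 366 in *Jarid2* Δpanc, against 356, 361 and 289 in *Jarid2* WT, or 0.08 on the log2 scale (standard error 0.12). The only array apart was *Jarid2* WT replicate 3, and against it alone the difference was 0.28. The second, 1434250_at, had 118, 91 and 111 in *Jarid2* Δpanc, against 109, 89 and 118 in *Jarid2* WT (0.02, standard error 0.16), with fully mixed groups. The third, 1430627_at, was dim, at 24, 40 and 27 in *Jarid2* Δpanc, against 24, 46 and 37 in *Jarid2* WT (-0.22, standard error 0.30).

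*Pak4* (chr7:28558819-28598184, 1428548_at) had a signal of 305, 272 and 272 in *Jarid2* Δpanc, against 328, 258 and 280 in *Jarid2* WT. The *Jarid2* Δpanc values lay within the *Jarid2* WT range, and the log2 fold change was -0.02 (standard error 0.13), with a range of -0.10 to 0.07 over the other settings. A value near 0 with errors of this size does not show that a kinase was unchanged.

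Of the 9 probe sets, 2 had every *Jarid2* Δpanc array below every *Jarid2* WT array, where 4.75% of the 38882 probe sets compared had that order, and 0 had every *Jarid2* Δpanc array above, where 6.47% had. Both belong to the genes selected on these arrays, so nothing is read from that count. The fold change was negative in 7 and positive in 2, with a median of -0.16, while over all probe sets the median was 0.03 and 44.8% were negative. Every probe set of the selected *Ripply3* and *Pak3* was among the negative ones, so nothing is read from these signs or this median either. The limma fit (adjusted p under 0.05, Benjamini-Hochberg over all 38882 probe sets) called 0 lower and 0 higher (0% each way), with a smallest adjusted p of 0.232. Without adjustment, 1019 lower and 1747 higher probe sets had a p under 0.05. With trended and robust variances the same values gave 55 lower and 10 higher, so the 0 depends on the variance model.

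**Figure D2:**
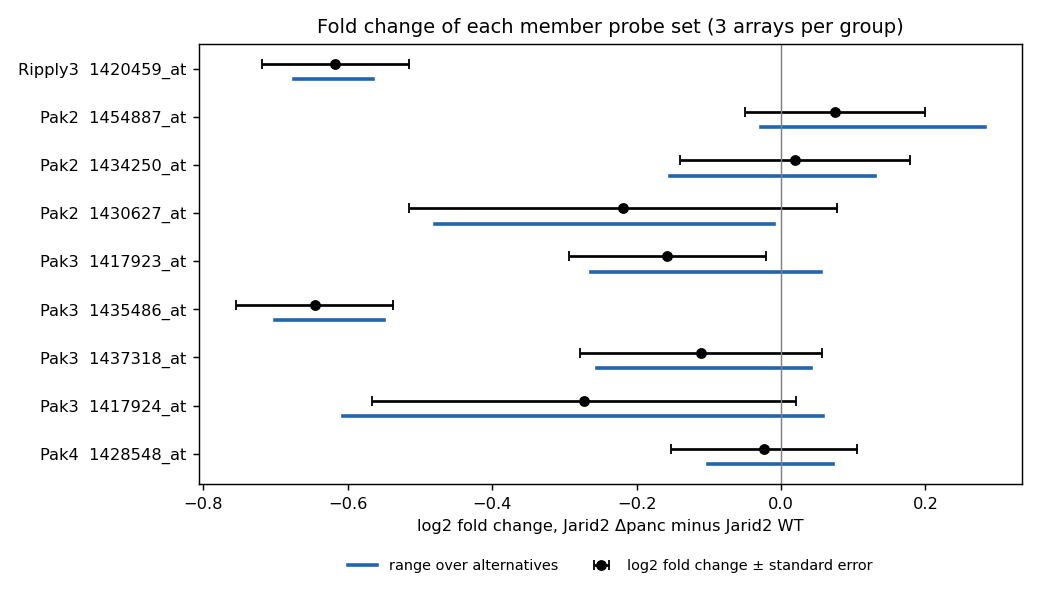
Log2 fold change (horizontal axis, *Jarid2* Δpanc minus *Jarid2* WT) of each probe set, with the standard error of the limma fit (black) and the range over the other settings (blue). The blue ranges of *Ripply3* (-0.67 to -0.57) and of *Pak3* 1435486_at (-0.70 to -0.55) stay below 0, and the third range wholly below 0 is that of the dim *Pak2* 1430627_at, which reaches -0.01.

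Around these genes, 65 genes of the PAK and Ripply pathways and of the cell cycle were listed, of which 59 could be compared by their brightest probe set. The limma fit called 0 of these lower and 0 higher, as it did over all probe sets (0%), and without adjustment 1 lower and 2 higher genes had a p under 0.05. All *Jarid2* Δpanc arrays lay below all *Jarid2* WT arrays for 2 genes (4.75% of all probe sets) and above for 6 (6.47% of all probe sets), and the median log2 fold change was 0.02. The 8 genes of the 2 last counts are named after their values were seen.

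The other family members *Pak6* and *Pak7* (the kinase now called Pak5) were dim, at 20 to 43 in *Jarid2* Δpanc and 21 to 39 in *Jarid2* WT, with log2 fold changes of -0.05 and -0.04.

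Among 10 adaptors, exchange factors and regulators of PAKs, the median was -0.03. *Pak1ip1*, an inhibitor of *Pak1*, had -0.06, and *Pdpk1*, which phosphorylates PAKs and many other kinases, had -0.13. *Git2*, a scaffold that carries PAKs and PIX exchange factors to adhesions, had a signal of 375, 309 and 279 in *Jarid2* Δpanc, against 274, 256 and 274 in *Jarid2* WT (log2 fold change 0.25, adjusted p = 0.781 from limma). *Grb2*, a growth factor receptor adaptor, had 292, 286 and 297 in *Jarid2* Δpanc, against 341, 320 and 346 in *Jarid2* WT (-0.20, adjusted p = 0.742), and its second probe set had 0.07. In both the groups were separate by order, but neither passed the test.

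Among 19 substrates and downstream targets, which include the LIM kinases, cofilins and slingshot phosphatases of actin turnover, the median was 0.04. The highest signals were those of *Ctnnb1* (β-catenin), at 8403 to 9723 in *Jarid2* Δpanc and 8895 to 9212 in *Jarid2* WT (-0.01), and of *Dynll1*, a dynein light chain, with -0.02. *Mylk*, the myosin light chain kinase that PAKs inhibit, had 340, 272 and 262 in *Jarid2* Δpanc, against 248, 254 and 223 in *Jarid2* WT (0.26, adjusted p = 0.775). Its other probe sets had overlapping groups, with 0.34 in 1425505_at and -0.20 in the dim 1425504_at.

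On the side of *Ripply3*, 13 T-box factors and TLE corepressors could be compared, with a median of -0.01. *Tle6* and *Tle3* had -0.04 and -0.07. *Tle4*, a Groucho corepressor, had a signal of 161, 170 and 161 in *Jarid2* Δpanc, against 79, 128 and 100 in *Jarid2* WT, with all 3 *Jarid2* Δpanc arrays higher and a fold change of 0.71 on the log2 scale (standard error 0.18) that did not pass (adjusted p = 0.471 from limma). Its other 2 probe sets were near the floor, with 0.17 and 0.06. *Tbx18*, a T-box factor of mesenchyme and epicardium, had 25, 28 and 26 in *Jarid2* Δpanc, against 20, 19 and 18 in *Jarid2* WT (0.47, adjusted p = 0.389), close to the floor throughout. Its second probe set did not rise above the floor on any array. *Tbx1*, the known partner of *Ripply3*, was close to the floor as well, at 12 to 17 in *Jarid2* Δpanc and 5 to 34 in *Jarid2* WT, and *Ripply2* was under it on every array.

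Among 15 cell cycle regulators the median was 0.04. *Cdkn1a* (p21, an inhibitor of cyclin-dependent kinases) had 337, 422 and 309 in *Jarid2* Δpanc, against 447, 438 and 463 in *Jarid2* WT (-0.35, adjusted p = 0.691), and its second probe set had -0.16 with overlapping groups. *Mki67*, a marker of cycling cells, had 2469, 2425 and 2451 in *Jarid2* Δpanc, against 2139, 2177 and 2196 in *Jarid2* WT (0.17, adjusted p = 0.772). The groups did not overlap for *Mki67*, nor for the inhibitor *Cdkn2c* with 0.22 (adjusted p = 0.736). *Pcna*, the sliding clamp of DNA replication, had 0.02, and the inhibitor *Cdkn1c* (p57) had 0.13.

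**Figure D3:**
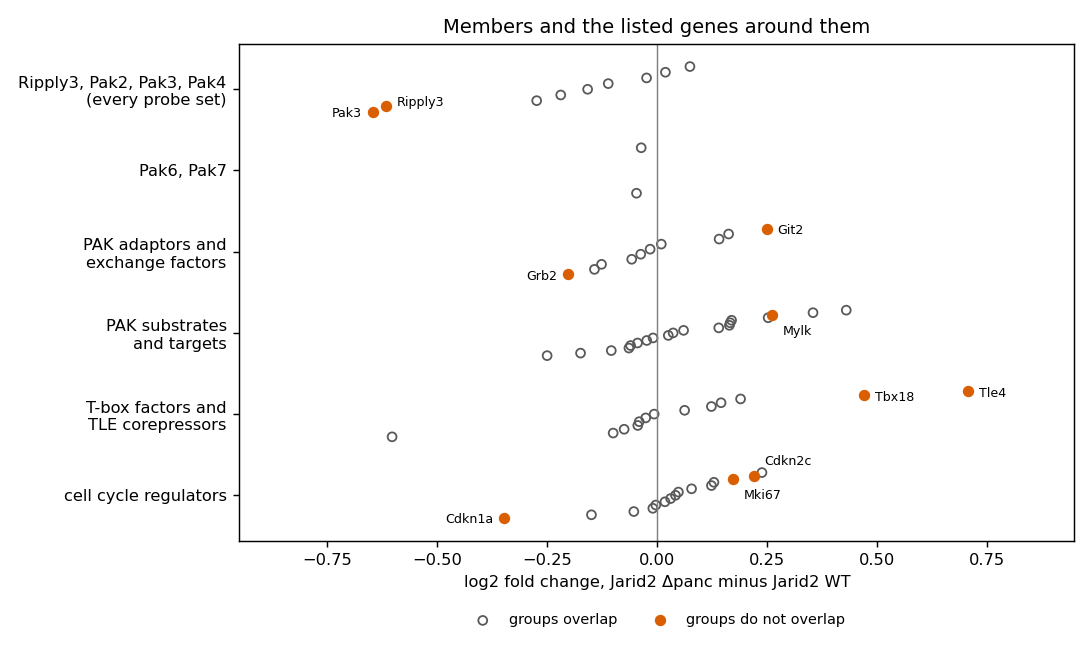
Log2 fold change (horizontal axis, *Jarid2* Δpanc minus *Jarid2* WT) of each probe set of the described genes (top) and of the brightest probe set of each listed gene (below). Filled points are those whose groups do not overlap, 2 of 9 in the top row and 8 of 59 in the lists, and the medians of the lists lie between -0.04 and 0.04.

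Markers of the cells that could carry these transcripts were listed too, and in no list was a marker called lower or higher by limma. In a list of 12 genes of endocrine progenitors and endocrine cells, all 12 had a negative fold change (44.8% of all probe sets did) and 7 had every *Jarid2* Δpanc array below every *Jarid2* WT array (4.75% of all did), with a median of -0.30 and a smallest adjusted p of 0.281 from limma. None of the 12 was at the floor. The study had already named *Ins2* and *Iapp* as downregulated on these same arrays, and the list was chosen with earlier results known. Its counts are thus a description and no new evidence. Their summed signal was 12653 to 14686 in *Jarid2* Δpanc, against 20837 to 24030 in *Jarid2* WT. Most of that sum came from *Ins2*, *Iapp* and *Gcg*, so it is no measure of cell number. *Ins2* averaged 2815 in *Jarid2* Δpanc and 5826 in *Jarid2* WT, *Iapp* 2889 and 6191, and *Gcg* 3087 and 4728. The groups overlapped for *Neurog3*, *Isl1*, *Pax6*, *Chga* and *Chgb*. *Neurog3*, the factor that specifies endocrine progenitors, had a log2 fold change of -0.20, *Neurod1* had -0.23 and *Insm1* -0.21, while the hormone genes *Ins2* and *Iapp* had -1.05 and -1.10. The part of these cells in the values of *Ripply3* and *Pak3* was not tested.

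The other marker lists showed no such order. Pancreatic epithelium summed to 36352 to 45319 in *Jarid2* Δpanc and 41238 to 43608 in *Jarid2* WT. Most of this sum was signal of *Cpa1* and *Ctrb1*, so it does not stand for the epithelium as a whole. The 8 neuronal and neural crest genes measured, which matter for *Pak3*, summed to 852 to 1130 in *Jarid2* Δpanc and 816 to 1059 in *Jarid2* WT, with 3 negative and 5 positive fold changes. Most of that sum came from *Ret* and *Stmn2*, so it is no measure of the number of neurons. Mesenchyme, endothelium and blood sums overlapped between the groups, although all 7 mesenchymal and all 4 endothelial genes had positive fold changes (medians 0.13 and 0.12, with no adjusted p under the threshold), and skeletal muscle stood apart in *Jarid2* WT replicate 3 alone.

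**Figure D4:**
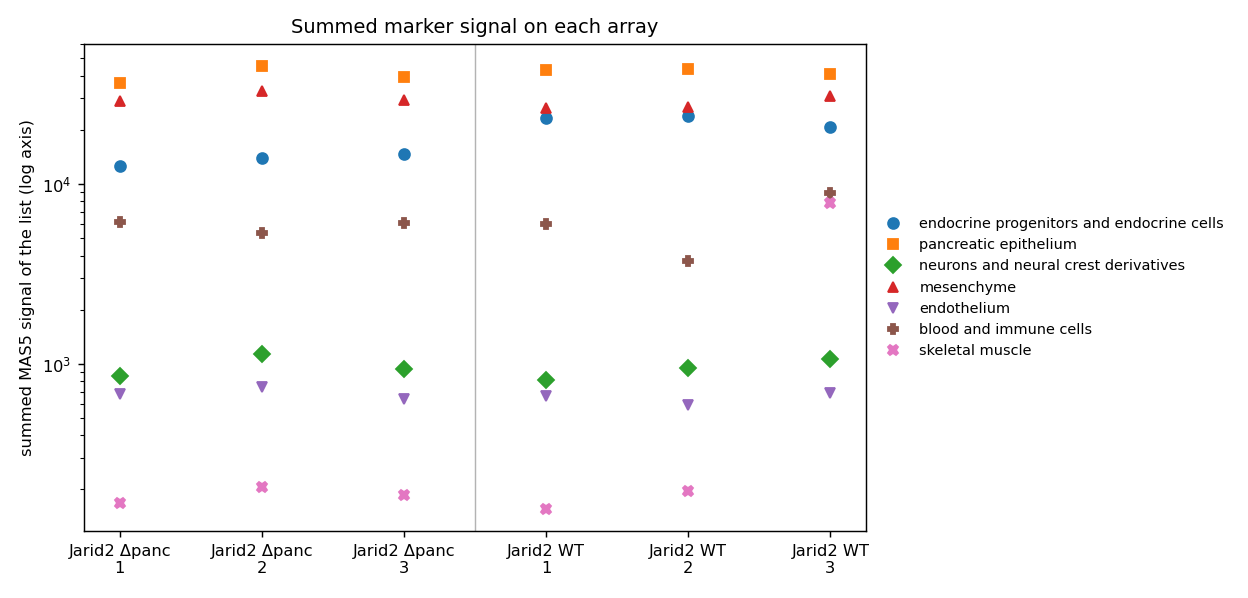
Summed signal of each marker list (vertical axis, log scale, MAS5 signal) on each of the 6 arrays, *Jarid2* Δpanc at left and *Jarid2* WT at right. The endocrine sums (circles) are at most 14686 in *Jarid2* Δpanc and at least 20837 in *Jarid2* WT, and the muscle sum (crosses) reaches 7848 in *Jarid2* WT replicate 3. Most of the endocrine sum is signal of *Ins2*, *Iapp* and *Gcg*.

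The genes whose log2 signal followed *Ripply3* most closely over the 6 arrays were *Fkbp11* (Pearson r = 0.999), *Klk1* in its probe set 1415837_at (0.997), *Srm* (0.991), *Gstm1* (0.986) and *Cdc34* (0.986), out of 15702 candidates. These r are descriptions, since the arrays form 2 groups and all 5 genes were below the controls in every *Jarid2* Δpanc array. *Fkbp11*, a prolyl isomerase of secretory cells, had a signal of 456, 391 and 402 in *Jarid2* Δpanc, against 662, 654 and 635 in *Jarid2* WT. For *Pak3* the list depends on the probe set. The closest to 1435486_at were *Dbi* (0.997), the acinar lipase *Cel* (0.996), *Reep5* (0.993), *Ins2* (0.993) and *Ufsp2* (0.991), each also below the controls in every *Jarid2* Δpanc array. The closest to 1417923_at were *Evpl* (0.990), *Atg4d* (0.983), *Xpot* (0.982), *D10Wsu102e* (0.981) and *Clint1* (0.980), for all of which the groups overlap. The comparison for 1435486_at was added after its values were seen.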

How the data were processed

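RNA of 6 whole e15.5 pancreases was hybridized to Affymetrix Mouse Genome 430 2.0 arrays. The authors deposited intensity values on a linear scale, which the submitters' notes credit to MAS5 (version not given in the sources used here) and which have a trimmed mean of 150 on every array, with 2% left out at each end. The methods of the study name RMA and limma, and the scanner files that RMA starts from were not used here. Neither detection calls nor dates nor batches entered.

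A floor of 16 was applied before the log2 transform. The 64 control probe sets and the 6155 at the floor on all arrays were left out, which leaves 38882, all 9 described probe sets among them. The test was that of limma (version 3.58.1, R version 4.3.3), with lmFit, eBayes, no covariates, prior degrees of freedom of 2.32 and Benjamini-Hochberg adjustment at 0.05, and it was tested on simulated data first. Genes were named through the platform annotation, where 34958 probe sets have 1 symbol, 932 have several and 9211 of the array have none. The probe set with the highest mean log2 value stood for a listed gene.

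The described genes and the lists were chosen with earlier results of these data known. Named are every probe set of the described genes and of *Jarid2*, from each list the 2 genes with the highest mean where none passed, the 5 genes most like *Ripply3* and *Pak3* among probe sets with a mean log2 value of at least 6, and markers of cell types whose summed signal separated the groups or stood apart in 1 array. Alternatives covered the floor (1, 32 and 64), normalization, each array left out, a replicate block, a Y-linked indicator, filters, variance model, threshold and choice of probe set. Intensities carry no read depth, and precision is limited by the number of arrays. The share of probe sets below 16 was 26.5% to 29.0%. Promoter windows are from RefSeq, GRCm38.p6, where 3 of the 5 genes (*Pak1*, *Pak3* and *Pak4*) matched by symbol. One further gene list is not reported here.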

Additional observations from a re-analysis of the deposited data

How the results depend on the processing

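Of 158 values recomputed under other settings, 145 were labelled the same and 13 moved. A fold change was the same if it shifted by less than the pooled SD of its probe set, even across 0. A count was the same if it was equal or within a set ratio, and many of the counts stayed at 0. The log2 fold change of *Ripply3* was negative in every setting run. *Pak3* had -0.65 in place of -0.16 when the probe set was chosen by its linear mean, a choice added after seeing the data. With the Y-linked indicator as a covariate, which leaves *Jarid2* WT replicate 3 as the only control, *Pak2* had 0.28, *Pak3* 0.055 in 1417923_at and -0.55 in 1435486_at, 1 described probe set lay above the control in every *Jarid2* Δpanc array, and 80 probe sets were called lower by limma. *Jarid2* WT replicate 3 is also the array with the muscle transcripts, with a summed signal of 7848 against 169 to 207 in *Jarid2* Δpanc. A difference from this 1 array cannot be told apart from a difference between genotypes. The part of the muscle transcripts in the probe sets called with this covariate was not tested. Counts over all probe sets, 0 and 0 at first, were 7 lower with a floor of 64, 6 lower with a mean log2 of at least 6, 1 lower and 1 higher with no filter, and 55 lower and 10 higher with trended and robust variances. Leaving out 1 array gave 0 to 5 lower and 0 to 2 higher, the most without *Jarid2* WT replicate 3. The cause was not tested. No listed pathway gene was called under any of these settings. Same-numbered arrays did not deviate together (r between -0.02 and 0.00), and with a replicate block 0 were lower and 0 higher and *Ripply3* had -0.62. With a floor of 64 the dim 1430627_at and 1417924_at have no value. The fold change of *Pak1* was not analysed here.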

Other observations

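*Tle4* was the listed gene with the highest fold change, 0.71, which did not pass (adjusted p = 0.471 from limma). It was 1 of 2 T-box and TLE genes with every *Jarid2* Δpanc array above every *Jarid2* WT array, an order that 6.47% of all probe sets had. *Git2* had a second probe set of the same order, 1445037_at, with 53, 39 and 38 in *Jarid2* Δpanc, against 19, 28 and 32 in *Jarid2* WT (log2 fold change 0.74), and 3 further probe sets whose groups overlap. Both genes were picked out after their values were seen.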
